A study of Mus musculus with 32 samples.

Results

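A set of 10 genes of the fibroblast growth factor (FGF) pathway and its feedback was followed from the mouse oocyte to the inner cell mass, in embryonic stem cells, and after knockdown of Nr5a2 or Gata4. They were chosen by name: the ligand Fgf4, the receptors Fgfr1, Fgfr2, Fgfr3 and Fgfr4, the ERK pathway inhibitors Dusp6, Spry2 and Spry4, and the transcription factors Etv4 and Etv5. All 10 were found, among 24013 genes in the stage table and 22536 in each knockdown table. The 32 samples were polyadenylated RNA sequenced by a modified Smart-seq2 protocol, which makes full-length cDNA from very few cells, and expression was deposited as FPKM, fragments per kilobase of transcript scaled to the depth of the library. The stage table gave 1 value per gene and stage, with 2 samples behind each stage and 3 behind the inner cell mass.

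MII oocytes came from superovulated C57BL/6N females. Embryos were C57BL/6N x DBA/2N crosses, with superovulated C57BL/6N mothers and DBA/2N fathers, taken as zygotes and at the early 2-cell, 2-cell, 4-cell and 8-cell stages. The inner cell mass (ICM), the inner cells of the blastocyst, was isolated from such embryos by immunosurgery, which destroys the outer layer. The embryonic stem cells (mESC) were the R1 line, grown with serum and the cytokine LIF. The knockdown libraries came from siRNA-injected embryos cultured in CZB medium with glutamine. The 8-cell embryos gave 4 libraries after Nr5a2 siRNA and 4 controls, and the blastocysts gave 4 libraries after Gata4 siRNA and 3 controls; what the controls received is not spelled out in the labels. Nr5a2 is an orphan nuclear receptor and Gata4 a zinc-finger factor of the primitive endoderm. The labels do not say how many embryos a library held, nor that libraries came from separate litters, so p-values measure the spread between these libraries, which may be technical.

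FGF4 is secreted by epiblast precursors of the blastocyst and binds FGF receptors together with heparan sulphate. The receptors pass the signal through adaptors, Ras and a chain of kinases to ERK, which drives inner cells toward primitive endoderm and supports the trophectoderm. ERK activity raises transcription of its own brakes, among them DUSP6, which removes the activating phosphates from ERK, and the Sprouty proteins, which act nearer the receptor; the ETS factors ETV4 and ETV5 are induced by FGF as well.

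Marker genes fixed for each cell type were compared with the labels. In the ICM all 6 epiblast and pluripotency markers reached 1 FPKM and summed to 1032 FPKM, with Nanog at 288, and 8 of 9 primitive endoderm markers reached 1 FPKM. All 8 trophectoderm markers also reached 1 FPKM there and summed to 179 FPKM, with Krt8 at 62.7 and Cdx2 at 1.61, against 2614 to 3495 in the control blastocyst libraries. None of the 7 cumulus cell markers reached 1 FPKM in MII oocytes, and none of the 8 fibroblast markers did in mESC. The 45S ribosomal precursor Rn45s was listed at 6967 FPKM in MII oocytes, 6829 in early 2-cell embryos and 2555 in mESC and at 0 in the other 5 stages; the reason is not given in the sources used here. Between 8388 and 9580 genes reached 1 FPKM per stage, between 7703 and 8370 per 8-cell knockdown library and between 7378 and 8945 per blastocyst library.

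Ligand and receptor genes differed between the early and the later cleavage stages. Fgf4 was listed at 0 in MII oocytes and early 2-cell embryos and at 0.016 FPKM in zygotes, then at 7.76 in 2-cell, 7.17 in 4-cell and 2.93 in 8-cell embryos, 7.89 in ICM and 13.4 in mESC. It was thus at or near 0 in the 3 earliest columns and above 2 FPKM in all 5 later ones, with its lowest later value at the 8-cell stage and its highest in mESC, where 89.4% of genes lay below it. Fgfr1, the receptor shared by epiblast and primitive endoderm precursors, ran from 1.63 FPKM in zygotes to 7.11 in ICM and never reached 0. Fgfr2, known from trophectoderm and primitive endoderm, was highest in MII oocytes at 15.0 FPKM, lay at 2.21 in zygotes and 0.571 in 2-cell embryos, returned to 6.07 in 8-cell embryos and 5.72 in ICM, and was nearly absent from mESC at 0.0274. It therefore had an oocyte peak and a second, lower plateau from the 8-cell stage to the ICM. Fgfr4 was at most 0.015 FPKM up to early 2-cell embryos, reached 2.87 in 2-cell, 8.36 in 4-cell and 5.79 in 8-cell embryos and was 0.212 in ICM and 0 in mESC. Fgfr3 had the lowest peak of the 4 receptors, 2.07 FPKM in 8-cell embryos. After the zygote these values come from several cells together, in which fewer cells of a type and less RNA per cell cannot be told apart.

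**Figure D1:**
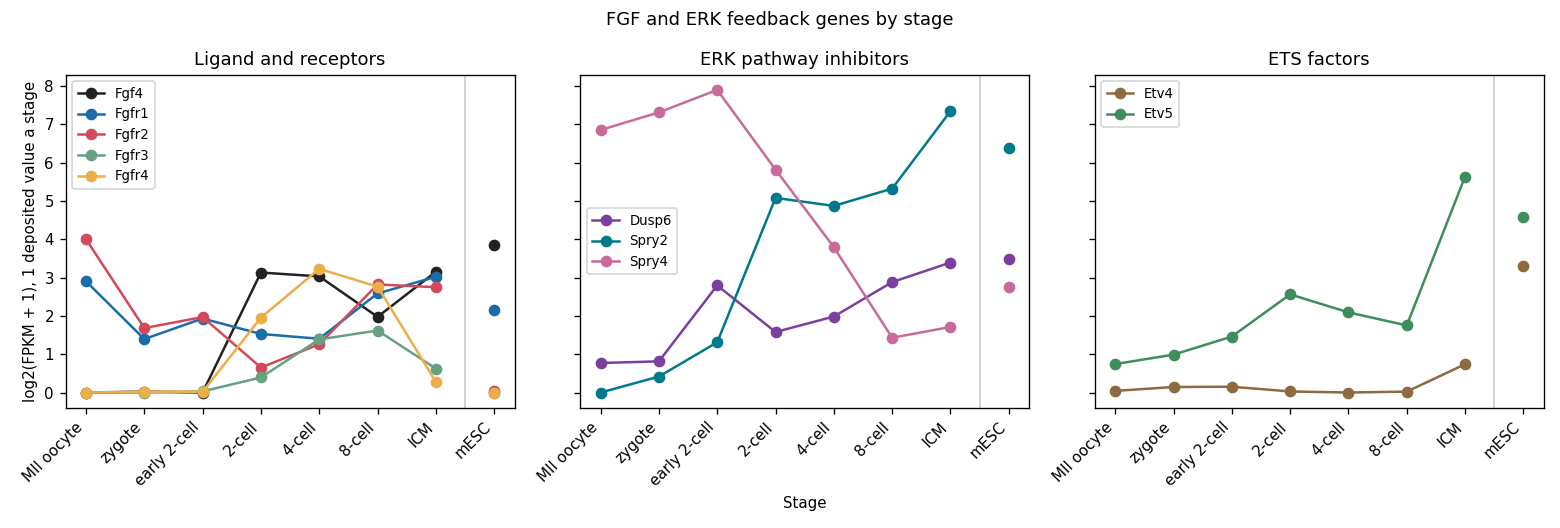
Levels of the 10 genes as log2(FPKM + 1), 1 deposited value per stage, in 3 panels for ligand and receptors, ERK pathway inhibitors and ETS factors; lines join the stages from MII oocyte to ICM and mESC stands apart. Spry4 starts at 115 FPKM and drops to 1.69 at the 8-cell stage while Spry2 climbs from 0 to 161 in ICM, and Fgfr4 peaks at 8.36 in 4-cell embryos.

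FPKM is scaled per length, so the receptors can be set side by side as shares of their summed FPKM. In MII oocytes Fgfr2 held 69.9% and Fgfr1 30.2% of a sum of 21.5 FPKM, and Fgfr3 and Fgfr4 held 0%. The same pair made up nearly all receptor signal in zygotes and early 2-cell embryos, where Fgfr2 held 57.3% and 50.6%. In 2-cell embryos Fgfr4 held the largest share at 50.9%, and in 4-cell embryos it held 64.2% of a sum of 13.02 FPKM. At the 8-cell stage no receptor held more than Fgfr2 with 32.0%, close to Fgfr4 with 30.6% and Fgfr1 with 26.4%. In ICM Fgfr1 held 52.3% and Fgfr2 42.1%, and in mESC Fgfr1 held 99.2% of a sum of 3.47 FPKM. With 1 value per stage, no spread could be set beside these shares. Fgfr1, Fgfr2 and Fgfr3 each share exon sequence with another annotated gene (Gm16159 and G630022F23Rik on the opposite strand from Fgfr1 and Fgfr3, Ctbp2 on the strand of Fgfr2), and the counting is not stated to use strand.

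In single libraries the shares varied widely. Across the 4 control 8-cell libraries Fgfr4 held 49.6%, 24.1%, 40.2% and 18.6%, and across the 4 Nr5a2 knockdown libraries 48.2%, 56.2%, 16.9% and 28.0%, ranges that overlap over most of their length. Fgfr1 held 26.1%, 42.0%, 13.2% and 32.1% in the controls and 14.7%, 7.10%, 9.94% and 20.6% in the knockdown, lower on average but with control 3 inside the knockdown range. In all 7 blastocyst libraries Fgfr2 held the largest share, 66.04%, 71.7% and 78.9% in the controls and 74.3%, 60.8%, 46.4% and 79.4% in the Gata4 knockdown. These blastocyst libraries hold trophectoderm markers at far higher levels than the ICM, where Fgfr1 led; the part of trophectoderm in that order was not tested.

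**Figure D2:**
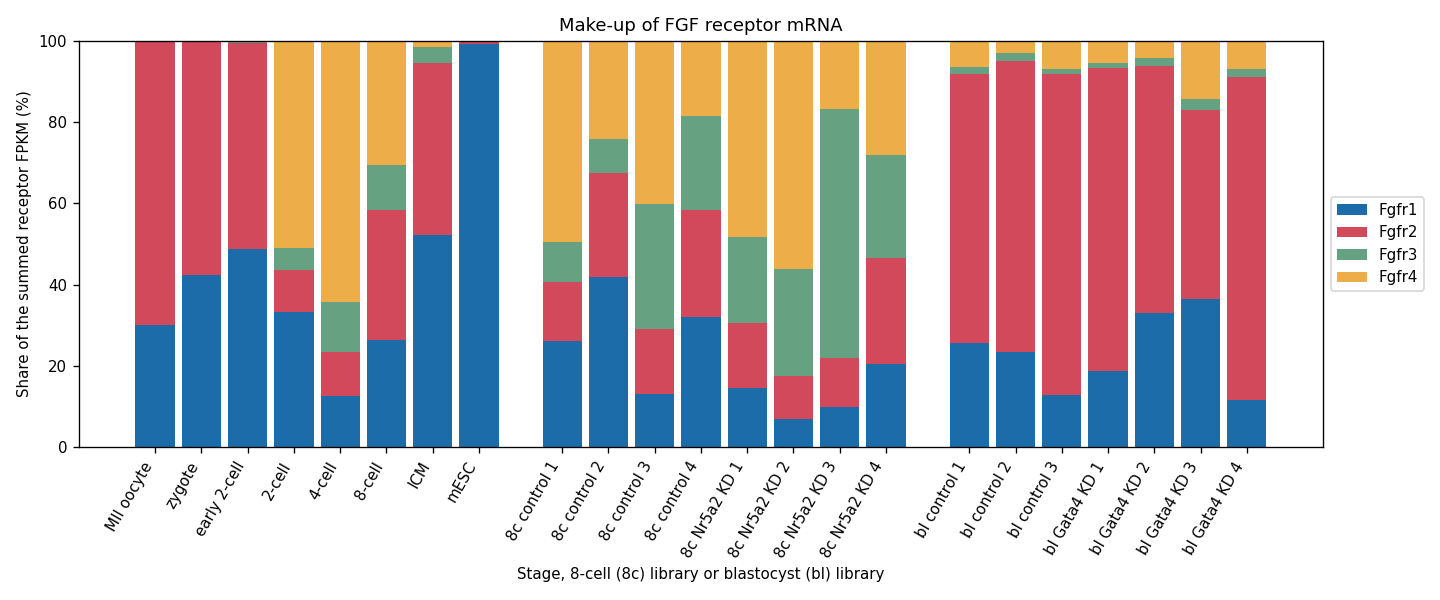
Share of each of the 4 FGF receptors in their summed FPKM, in percent, as stacked bars for the 8 stages and for every knockdown library. Fgfr2 leads in MII oocytes at 69.9%, Fgfr4 in 4-cell embryos at 64.2%, Fgfr1 in mESC at 99.2% and Fgfr2 in every blastocyst library.

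The feedback inhibitors followed separate courses. Spry4 stood at 115 FPKM in MII oocytes, 158 in zygotes and 237 in early 2-cell embryos, where 99.2% of genes lay below it, and then at 55.4, 12.9 and 1.69 in 2-cell, 4-cell and 8-cell embryos, 2.28 in ICM and 5.75 in mESC. Spry2 was listed at 0 in MII oocytes and at 0.334 and 1.48 FPKM in zygotes and early 2-cell embryos, and then at 32.8, 28.3 and 39.0 in 2-cell, 4-cell and 8-cell embryos, 161 in ICM and 82.0 in mESC. The 2 Sprouty genes thus exchanged rank between the 2-cell and the 4-cell stage, with Spry4 the higher up to 2-cell embryos and Spry2 the higher in every column after. Dusp6 was at 0.705 FPKM in MII oocytes, 0.758 in zygotes, 5.94 in early 2-cell, 1.99 in 2-cell, 2.95 in 4-cell and 6.37 in 8-cell embryos, 9.50 in ICM and 10.2 in mESC. It had a first maximum in early 2-cell embryos and its highest values in ICM and mESC.

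The promoters of Dusp6 and Spry2 are shown because both genes were higher in every Nr5a2 knockdown library than in any control, as described below. They are the RefSeq sequences of GRCm38.p6, 300 bases from 250 before to 50 after the annotated start, at chr10:99262981-99263280 on the plus strand for Dusp6 and chr14:105896770-105897069 on the minus strand for Spry2. Capitals mark GGAA or its reverse complement TTCC, the core recognised by ETS factors such as ETV4 and ETV5.
Dusp6: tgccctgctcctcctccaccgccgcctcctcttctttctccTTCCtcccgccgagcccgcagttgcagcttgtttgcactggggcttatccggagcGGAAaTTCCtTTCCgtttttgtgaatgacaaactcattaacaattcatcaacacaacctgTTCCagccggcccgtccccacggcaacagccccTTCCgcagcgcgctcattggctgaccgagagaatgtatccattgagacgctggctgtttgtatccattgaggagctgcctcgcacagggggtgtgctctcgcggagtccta
Spry2: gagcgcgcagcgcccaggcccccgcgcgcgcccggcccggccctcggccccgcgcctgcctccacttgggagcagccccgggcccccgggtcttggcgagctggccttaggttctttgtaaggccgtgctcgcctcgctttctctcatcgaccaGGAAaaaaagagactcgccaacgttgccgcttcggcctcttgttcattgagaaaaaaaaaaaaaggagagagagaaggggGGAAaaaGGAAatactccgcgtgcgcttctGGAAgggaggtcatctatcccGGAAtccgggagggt

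Dusp6 held 6 and Spry2 5 matches to GGAA or TTCC. Of 32851 promoters of the same length, 15.7% held at least 6 and 28.6% at least 5, and the median was 3. Promoters of 7 of the 10 genes were in the table (9 promoters, with a pair each for Fgfr3 and Etv5), and 1 of the Etv5 promoters also held 6, while that of Fgf4 held 0. A longer ETS motif, CCGGAAGT, was in none of the 9 and in 3.89% of all promoters. The NR5A2 motif AAGGTCA, searched on both strands, was in none of the 9 and in 4.72% of all promoters, and TCAAGGTCA, which contains it, was in 0.423% of all.

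The ETS factors were late. Etv5 was between 0.673 and 4.90 FPKM from MII oocyte to 8-cell embryo, and stood at 48.7 in ICM and 23.0 in mESC. Etv4 was at most 0.111 FPKM up to 8-cell embryos, 0.667 in ICM and 8.88 in mESC, the only column in which it passed 1 FPKM. Etv5 in ICM lay above 93.9% of genes and Spry2 in ICM above 98.2%.

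Between neighbouring stages a difference was counted past the fold when it was at least 1 on the log2(FPKM + 1) scale with at least 5 FPKM in the higher stage. From MII oocyte to zygote Fgfr1 (-1.51) and Fgfr2 (-2.32) were lower, 2 of 3 members counted, while 14.1% of all genes counted were lower and 8.19% higher and the median gene moved by -0.24. From zygote to early 2-cell embryo Dusp6 was higher by 1.98, where 3.26% of all genes were higher and 5.22% lower. From early 2-cell to 2-cell embryo Fgf4 (3.13) and Spry2 (3.77) were higher and Dusp6 (-1.22) and Spry4 (-2.08) lower, beside 22.7% of all genes higher and 22.4% lower. Each of these steps, and that from ICM to mESC, joins a column with Rn45s to a column without, and the part of that difference was not tested.

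Receptor genes were among those past the fold at every later step. From 2-cell to 4-cell embryo Fgfr4 (1.27) was higher and Spry4 lower (-2.02), beside 15.3% of all genes higher and 11% lower. From 4-cell to 8-cell embryo Fgfr1 (1.18) and Fgfr2 (1.56) were higher and Fgf4 (-1.06) and Spry4 (-2.36) lower, 4 of 9 members counted. Among all genes 4.3% were higher and 6.06% lower. With the median difference of all genes (-0.10) taken off, Fgf4 no longer passed, and Dusp6, at 0.90 before, passed as higher. From 8-cell embryo to ICM the signalling and feedback genes Fgf4 (1.18), Spry2 (2.02) and Etv5 (3.89) were higher and Fgfr4 (-2.49) lower, beside 17.8% and 14% of all genes. From ICM to mESC Spry4 (1.04) and Etv4 (2.57) were higher and Fgfr2 (-2.71) and Etv5 (-1.05) lower. The median gene moved by -0.54 there, and 7.16% of all genes were higher and 25% lower. With that median taken off, Etv5 no longer passed, and Fgf4, at 0.70 before, passed as higher. None of these stage differences has a replicate check.

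Other genes of the pathway, taken from lists by role, peaked at stages that differed within each list. Among 21 other ligands the highest values belonged to Fgf10 with 26.7 FPKM in ICM, Fgf3 with 11.99 in 4-cell embryos, Fgf8 with 8.30 in early 2-cell embryos and Fgf7 with 7.31 in zygotes. Of the heparan sulphate genes, the core protein gene Sdc1 peaked in MII oocytes at 96.2 FPKM and Sdc4 in ICM at 99.8, while Ext1 and Extl3, which build the sugar chain, peaked in MII oocytes at 22.1 and 17.1. The kinase gene Map2k1 (MEK1) peaked in MII oocytes at 316 FPKM, Mapk3 (ERK1) in early 2-cell embryos at 94.2 and Araf in 8-cell embryos at 40.4. Of the other inhibitors, the ERK phosphatase gene Dusp7 reached 78.5 FPKM in 2-cell embryos and was 1.26 in ICM, and Cbl, Il17rd and Spry1 peaked at 15.5, 12.1 and 10.4. Of other ERK targets, Myc peaked at 56.1 in 4-cell embryos and Ier2 and Fos in ICM at 42.6 and 9.65, and Etv1 in zygotes at 10.2.

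The 9 members that reached 5 FPKM in some stage (all but Fgfr3) were matched by Pearson correlation of log2(FPKM + 1) over the 8 stages with the 9573 genes that also reached it. These correlations describe 8 deposited values from 1 table and carry no test. Most like Fgf4 were Klf9 (r = 0.992) and Mbd3 (0.991), and most like Fgfr4 were C2cd2l and Sardh (both 0.995). Mettl17 was among the genes most like Fgfr2 (0.971), and most like Fgfr1, with the loosest match, were Rbm14 (0.914) and Cdh1 (0.891). Spry2 was nearest to Chchd4 (0.995) and Chrac1 (0.994), and Spry4 to Cttnbp2nl (0.995) and Rnf146 (0.989). Dusp6 was nearest to Dynlt1c (0.949) and Dynlt1b (0.939), members of a family of similar copies whose values are uncertain. Etv5 was nearest to Zkscan3 (0.990) and Zfp59 (0.988), and Etv4, whose level rests on mESC alone, to Gpx8 and Car13 (both 0.999).

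In the Nr5a2 knockdown of 8-cell embryos the feedback inhibitor Spry2 rose, Dusp6 was higher in every knockdown library than in any control, and no member fell. The targeted gene itself was at 23.6, 20.3, 13.1 and 25.2 FPKM in the 4 controls and 3.76, 4.25, 6.72 and 6.60 in the knockdown libraries. It fell by 1.76 on the log2(FPKM + 1) scale (SE 0.27, adjusted p = 0.0143, limma with Benjamini-Hochberg adjustment over all 8170 genes tested); without control 1 the adjusted p was 0.0611, and with no filter on low values 0.0845. Of the 10 members 7 passed the filter of at least 1 FPKM in 4 libraries, Spry2 and Dusp6 passed the test upward and 0 members downward, where 1.57% of all genes tested rose, 0.698% fell and 2.26% did either. Dusp6 met the filter only through the 4 knockdown libraries, so the number of members called is partly set by the filter and is no support for the members as a group. The 7 members' median difference, Dusp6 included, was 0.11, beside 0.12 over all genes.

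Spry2, which restrains receptor tyrosine kinase signalling to ERK, was at 16.7, 17.5, 13.9 and 25.0 FPKM in control libraries 1 to 4, and knockdown libraries 1 to 4 stood at 98.5, 51.3, 37.7 and 82.4. Every knockdown library lay above every control; 11.8% of all genes tested had groups that did not overlap, in either direction. The means were 18.3 ± 4.72 and 67.5 ± 27.9 FPKM (SD, n = 4 each), a log2 difference of 1.76 (SE 0.30, limma adjusted p = 0.0176). It was called in 12 of 15 alternative fits, with log2 differences from 1.55 to 2.00. Adjusted p-values above 0.05 came without control 1 (0.0671), without control 2 (0.0518) and with no filter on low values (0.103).

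Dusp6, the ERK phosphatase gene, was listed at 0, 0, 0 and 0.218 FPKM in the controls, and the knockdown libraries stood at 23.2, 3.24, 11.8 and 1.05. The groups did not overlap, and the knockdown libraries spread widely, with libraries 1 and 3 well above 2 and 4. No control reached 1 FPKM and all 4 knockdown libraries did, so the gene entered the fit only through the group where it was high. The log2 difference was 2.78 (SE 0.61, limma adjusted p = 0.0441), close to the threshold, and its size depends on the pseudocount, with 5.42 at 0.1 and 1.29 at 5, and from 2.195 to 3.38 with single libraries left out. The call held in 2 of 14 alternative fits, without knockdown library 4 (0.0224) and with a pseudocount of 0.1 (0.0217). Leaving out control 1, 2, 3 or 4 gave adjusted p = 0.129, 0.102, 0.0885 and 0.0730, and leaving out knockdown library 1, 2 or 3 gave 0.0683, 0.0814 and 0.0652. It was also lost with median scaling (0.0565), quantile normalization (0.0575), a pseudocount of 5 (0.0929) and no filter on low values (0.170).

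**Figure D3:**
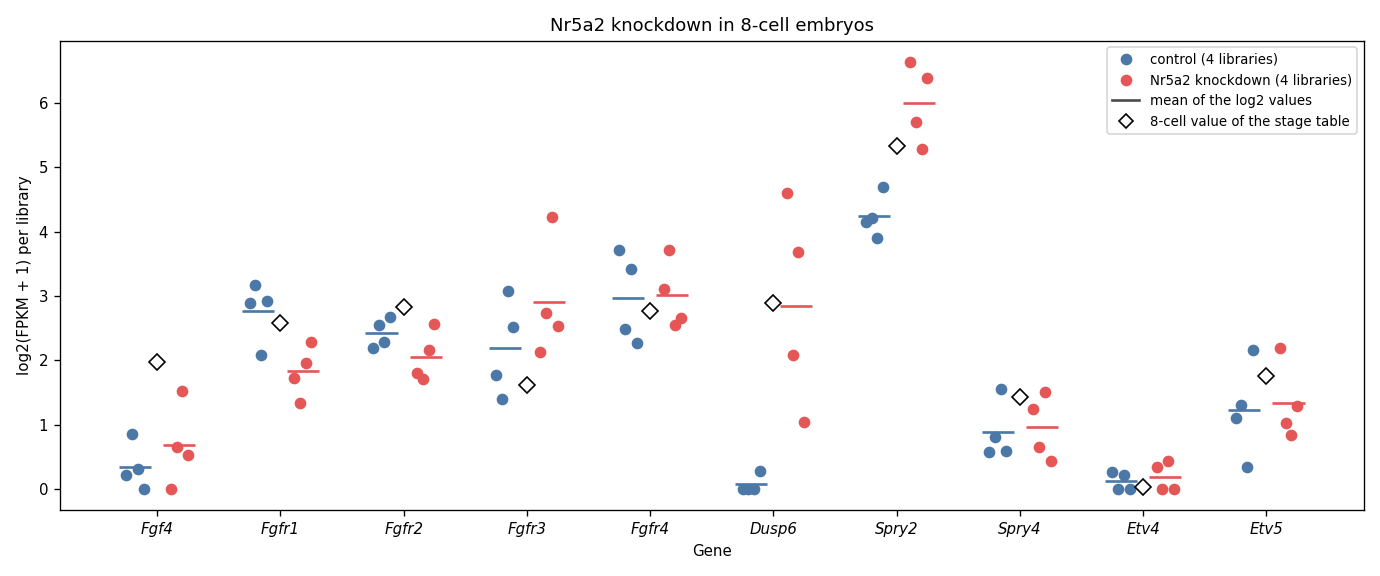
Values of the 10 members in each 8-cell library on a log2(FPKM + 1) axis, as blue points for 4 controls and red points for 4 Nr5a2 knockdown libraries, with a line at each group's mean of log2 values and a diamond at the uninjected 8-cell value. The knockdown points lie above all control points for Spry2 (37.7 to 98.5 against 13.9 to 25.0 FPKM) and for Dusp6 (1.05 to 23.2 against 0 to 0.218 FPKM), and the groups of the other 8 members overlap.

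The receptors did not pass the test. Fgfr1 was at 6.39, 8.02, 3.21 and 6.60 FPKM in the controls and 2.31, 1.53, 2.87 and 3.89 in the knockdown, ranges that overlap through control 3 and knockdown library 4. Its log2 difference was -0.94 (SE 0.30, limma adjusted p = 0.126), and it stayed above 0.05 in all 14 alternative fits. Fgfr2 lay at 3.56, 4.86, 3.86 and 5.38 against 2.5, 2.25, 3.46 and 4.91 FPKM, a log2 difference of -0.37 (SE 0.26, limma adjusted p = 0.451). Fgfr3, at 2.41, 1.63, 7.43 and 4.73 against 3.35, 5.66, 17.7 and 4.803 FPKM, differed by 0.71 (SE 0.47, limma adjusted p = 0.413), and its highest value came from a single knockdown library. Fgfr4, at 12.2, 4.60, 9.74 and 3.82 against 7.59, 12.1, 4.87 and 5.30 FPKM, differed by 0.03 (SE 0.37), with overlapping groups.

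The ligand and the ETS factors were low in these libraries. Etv5 was at 1.15, 1.46, 0.272 and 3.45 FPKM in the controls and 3.59, 1.04, 0.793 and 1.43 in the knockdown (log2 difference 0.11, SE 0.40, limma adjusted p = 0.898). Fgf4, at 0.156, 0.802, 0.239 and 0 against 0, 0.568, 1.87 and 0.444 FPKM, did not pass the filter. Spry4 ran from 0.492 to 1.93 FPKM in the controls and from 0.346 to 1.84 in the knockdown, and Etv4 did not exceed 0.350 in any of the 8 libraries; neither was tested.

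The uninjected 8-cell embryos of the stage table stood at 6.37 FPKM for Dusp6 and 39.0 for Spry2, above all 4 injected controls for both and within the knockdown ranges. Fgf4 (2.93) and Fgfr2 (6.07) also lay above the controls, and the other 6 members lay within them. Of 9883 genes compared in this way, 44.8% lay above the control range, 33.9% within and 21.3% below, and the 2 tables were normalized separately, so these levels carry no test.

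Other genes of the pathway were counted by list in the same fit. Of 11 other ERK target genes 4 were tested, 1 rose and all 4 differences were positive, with a median of 1.36 beside 0.12 over all genes. The gene that rose was Phlda1, a pleckstrin-homology domain gene, with 1.02, 2.64, 0.981 and 0.602 FPKM in the controls and 8.87, 4.53, 10.002 and 7.14 in the knockdown. Its groups did not overlap, and it too met the filter only with the knockdown libraries counted. The list's count, signs and median are therefore partly set by the filter and are no support for the list as a group. The log2 difference was 1.93 (SE 0.32, limma adjusted p = 0.0166); without control 1 the adjusted p was 0.0611, and with no filter on low values 0.0962. The immediate early gene Ier2 averaged 17.7 ± 9.76 FPKM in the controls and 55.2 ± 28.3 in the knockdown (SD, n = 4 each; log2 difference 1.56, limma adjusted p = 0.0931) and did not pass.

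Of 19 adaptor and Ras to ERK genes 14 were tested, 1 fell and 0 rose, with a median of -0.14. The gene that fell was Grb2, the adaptor that links activated receptors to the Ras activator SOS, at 59.4, 33.0, 45.5 and 44.6 FPKM in the controls and 16.3, 16.0, 19.9 and 30.5 in the knockdown. The groups did not overlap, and the means of 45.6 ± 10.8 and 20.7 ± 6.76 FPKM (SD, n = 4 each) gave a log2 difference of -1.12 (SE 0.25, limma adjusted p = 0.0441). This call rested on every library but knockdown library 4: without control 1, 2, 3 or 4 the adjusted p was 0.139, 0.0655, 0.0904 and 0.0774, and without knockdown library 1, 2 or 3 it was 0.0934, 0.124 and 0.0591. It was also lost with a pseudocount of 0.1 (0.0556) and with no filter (0.145). Frs2, the docking protein gene that couples FGF receptors to GRB2, had groups that did not overlap in the other direction, 1.796 ± 0.625 against 4.35 ± 1.09 FPKM (log2 difference 0.94, limma adjusted p = 0.0808), and did not pass.

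No gene of the other lists passed. Of 17 heparan sulphate genes 9 were tested with a median of 0.03, and the smallest p-values belonged to Sdc1 (log2 difference 1.59, limma adjusted p = 0.127) and Ndst1 (-0.56, 0.240). Of 14 other inhibitors 13 were measured and 5 passed the filter with a median of 0.40, led by Spred2 (0.74, limma adjusted p = 0.175) and Lztr1 (-0.60, 0.246). Of 21 other ligands only Fgf1 (-0.72, limma adjusted p = 0.289) and Fgf3 (0.59, 0.702) were tested.

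Markers and depth moved with the groups in part. The 6 epiblast and pluripotency markers summed to 151 to 283 FPKM in the controls and 36.7 to 154 in the knockdown, with 5 of 6 at 1 FPKM in every control and 4 or 5 in the knockdown; Sox2 was listed at 0 in 3 controls and in knockdown library 4. The 8 trophectoderm markers summed to 128 to 174 FPKM in the controls and 150 to 228 in the knockdown, with Elf5 listed at 0 in all 8 libraries, and the 7 oocyte markers to 36.9 to 124 and 27.4 to 67.1. Depth relative to the shallowest library, read from the steps of low FPKM values, was 1.51, 2.67, 1 and 1.24 in the controls and 2.91, 1.41, 1.69 and 1.83 in the knockdown. The part of markers and depth in the differences of Spry2, Dusp6, Phlda1 and Grb2 was not tested. Over all genes 128 rose and 57 fell, and with each library scaled to its median 65 rose and 80 fell; leaving out a single library left from 13 rises and 8 falls (without control 1) to 177 and 108 (without knockdown library 3).

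In the Gata4 knockdown of blastocysts no member passed the test. The targeted gene was at 3.18, 0.716 and 5.44 FPKM in the controls and 0, 0.368, 0 and 0 in the knockdown libraries, too low for the filter. In fits whose filter it met, through the controls alone, it was lower by log2 differences of -2.26 without control 2 (limma adjusted p = 0.0008) and -2.38 within the 4 libraries with the ribosomal precursor Rn45s (0.1004), and with no filter the difference was -1.73 (adjusted p = 1). Of 8782 genes tested by limma 0 rose (0%) and 3 fell (0.0342%) at adjusted p under 0.05, with 202 at an unadjusted p under 0.05; leaving out a single library gave from 1 fall (without control 1) to 25 (without knockdown library 2). Of the 10 members 6 were tested, 2 with positive and 4 with negative differences and a median of -0.43, beside -0.02 over all genes.

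Dusp6 had the largest difference among the tested members. It was at 13.3, 33.3 and 26.9 FPKM in the controls and 18.7, 8.56, 1.49 and 3.56 in the knockdown, where knockdown library 1 lay above control 1 and the other 3 lay below all controls. The means were 24.5 ± 10.2 (SD, n = 3) and 8.08 ± 7.68 FPKM (SD, n = 4), a log2 difference of -1.81 (SE 0.52, limma adjusted p = 0.517). It was called in 2 of 16 alternative fits, those that left out 1 of the knockdown libraries with the highest Dusp6 values. Without knockdown library 1 the difference was -2.33 with a limma adjusted p of 0.0075, and without knockdown library 2 it was -1.98 with 0.0343. Without knockdown library 3 it was -1.33 with 0.99992, and with median scaling -1.77 with 0.818.

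The blastocyst libraries were of 2 kinds. Rn45s was listed at 0 in control 2 and knockdown libraries 1 and 2 and at 37959 to 44718 FPKM in the other 4. Within the 4 libraries with Rn45s, 2 of each group, the log2 difference of Dusp6 was -2.57 (limma adjusted p = 0.201). In the 3 libraries at 0, which include a single control, it was -1.32. Spry2 lay between 2.37 and 27.3 FPKM in the libraries with Rn45s and between 32.9 and 44.6 in those without, so that the kinds of library did not overlap. Within each kind every knockdown value of Spry2 lay below every control. With so few libraries per kind such an order is common by chance, and the share of all genes that had it was not counted. It is therefore no support for a lower Spry2. With library type as a covariate the log2 difference of Spry2 was -1.17 (limma adjusted p = 0.605).

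**Figure D4:**
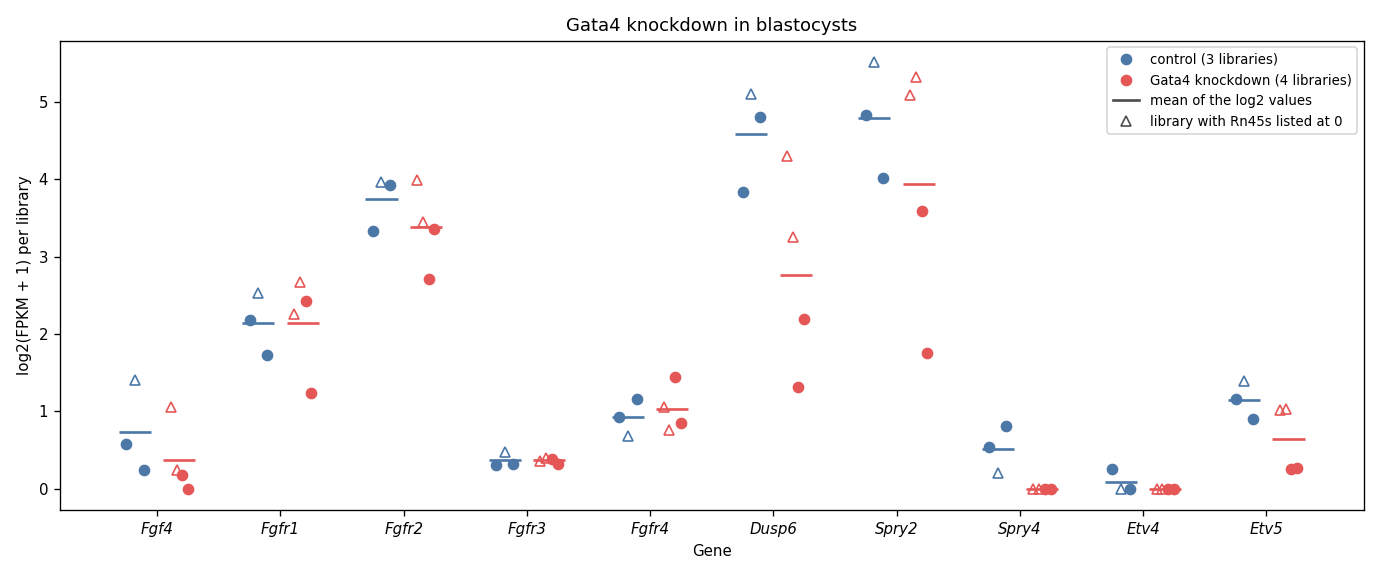
Values of the 10 members in each blastocyst library on a log2(FPKM + 1) axis, blue for 3 controls and red for 4 Gata4 knockdown libraries, with a line at each group's mean of log2 values and open triangles for libraries in which Rn45s was listed at 0. Dusp6 runs from 13.3 to 33.3 FPKM in the controls and from 1.49 to 18.7 in the knockdown, and Spry2 is higher in the libraries without Rn45s.

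Spry2 was at 27.3, 44.6 and 15.1 FPKM in the controls and 32.9, 39.0, 10.97 and 2.37 in the knockdown, a log2 difference of -0.85 (SE 0.59, limma adjusted p = 0.99997). Within the libraries with Rn45s the difference was -1.75 and within those without -0.31. Etv5 was at 1.24, 1.63 and 0.861 FPKM against 1.02, 1.05, 0.197 and 0.208, with the 2 lowest values in knockdown libraries 3 and 4 (log2 difference -0.51, SE 0.34). Spry4 was at 0.454, 0.152 and 0.749 FPKM in the controls and listed at 0 in all 4 knockdown libraries, and all 7 values lay below the filter. Etv4 was at 0.193 FPKM in control 1 and listed at 0 in the other 6 libraries.

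The receptor genes did not pass the test. Fgfr2, the highest, was at 9.08, 14.5 and 14.1 FPKM in the controls and 14.9, 9.88, 5.54 and 9.26 in the knockdown (log2 difference -0.36, SE 0.43). Fgfr1 was at 3.53, 4.75 and 2.30 against 3.77, 5.36, 4.37 and 1.36 FPKM (0.00, SE 0.41), and Fgfr4 at 0.898, 0.604 and 1.24 against 1.08, 0.695, 1.71 and 0.801 (0.10, SE 0.33). The groups overlapped for all 3. Fgfr3 lay between 0.237 and 0.395 FPKM in all 7 libraries, and Fgf4 was at 0.489, 1.64 and 0.188 against 1.09, 0.181, 0.137 and 0; neither was tested.

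No gene of the pathway lists passed in the Gata4 knockdown. All 5 tested of 11 other ERK target genes had negative differences with a median of -0.75, beside -0.02 over all genes. They were led by Junb (-1.09) and Fos (-1.08), both at a limma adjusted p of 0.99997. Fos spread widely in the controls, at 7.97 ± 8.54 FPKM (SD, n = 3). The share of all genes with negative differences was not counted, so the signs are no support for the list as a group. Of 13 measured other inhibitors, 7 were tested with a median of -0.33, led by the phosphatase genes Dusp4 and Dusp9 (-0.58). Dusp4 averaged 5.98 ± 4.47 FPKM in the controls (SD, n = 3) and 1.30 ± 1.14 in the knockdown (SD, n = 4) without overlap, a log2 difference of -1.58 (limma adjusted p = 0.447), where 2.38% of all genes tested had groups that did not overlap. Of the 19 cascade genes 16 were tested with a median of -0.03, led by Hras (0.72) and Sos1 (0.37), of the 17 heparan sulphate genes 6 with a median of -0.05, led by Ext2 (-0.69) and Sdc4 (-0.30), and of the 21 other ligands 0.

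Summed lineage markers overlapped between the blastocyst groups. The 9 primitive endoderm markers summed to 86.7 to 132 FPKM in the controls and 65.4 to 169 in the knockdown, with 4 to 7 of 9 at 1 FPKM against 2 to 5. Besides Gata4 itself, Sox17 did not overlap, at 0.383 to 0.952 FPKM against 0 to 0.121, all under 1 FPKM and not tested. Of all genes tested, 2.38% had groups that did not overlap. That share leaves out Sox17 and Gata4, which did not pass the filter, and may differ among genes so low. Foxa2, which peaked at only 1.62 FPKM among the stages, was listed at 0 in all 4 knockdown libraries. It was above 0 in controls 1 and 3, at levels not given here. Of the 9 markers, 0, 1 and 0 were listed at 0 in controls 1 to 3, and 3, 1, 4 and 5 in knockdown libraries 1 to 4. Sox17 and Foxa2 were picked after their values were seen. The epiblast markers summed to 43.3 to 127 and 40.5 to 91.0 FPKM, highest in control 2 and knockdown library 1, the libraries in which Fgf4 was highest in each group. Both are of the kind with Rn45s listed at 0. Knockdown library 2, of the same kind, summed to 86.5 FPKM with Fgf4 at 0.181. The trophectoderm markers summed to 2614 to 3495 and 2202 to 4471 FPKM. The part of these differences in the member values was not tested.

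Set beside the control blastocysts, the ICM value of every member lay outside the control range. The share of all genes that did so was not counted. The control blastocysts had lower values of Etv5, Spry2 and Fgf4 and higher values of Fgfr2 and Dusp6. Etv5 was 48.7 FPKM in ICM and 0.861 to 1.63 in the controls, Spry2 161 against 15.1 to 44.6 and Fgf4 7.89 against 0.188 to 1.64. Fgfr2 lay the other way, at 5.72 in ICM and 9.08 to 14.5 in the controls, and Dusp6 at 9.50 and 13.3 to 33.3. Fgfr1 was also lower in the controls, at 7.11 in ICM against 2.30 to 4.75, and Spry4, at 2.28 against 0.152 to 0.749. Fgfr3 (0.543 against 0.237 to 0.395) and Etv4 (0.667 against 0 to 0.193) were low in both. Fgfr4 was higher in the controls, at 0.212 in ICM and 0.604 to 1.24. The ICM came from uninjected embryos and the blastocysts were injected, cultured and whole, and the tables were normalized separately, so tissue, injection and table cannot be told apart.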

How the data were processed

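Per the submitters' processing notes, base calling used CASAVA 1.8 and alignment to mm9 used STAR 2.4.0 for all 32 samples, and Cufflinks 2.2.1 is named for 20 of them (not for MII oocytes, early 2-cell embryos or the 8-cell knockdown). The authors deposited FPKM values, in a stage table with 1 column per stage and 2 knockdown tables with 1 column per library. How replicates became 1 stage value is not given in the sources used here. The MII oocyte column of stage values was blank for 30 genes. Read totals are unknown. Relative depth came from steps of FPKM below 0.4 and fitted all 28 pairs of 8-cell libraries within 1.71%, but was off by up to 58.1% among blastocyst libraries and is not given there.

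Groups followed the labels. Knockdowns were compared with limma 3.58.1 (R 4.3.3, trend in the prior variance) on log2(FPKM + 1), so that changes of low genes are understated, for genes with at least 1 FPKM in at least 4 (8-cell) or 3 (blastocyst) libraries. Benjamini-Hochberg adjustment covered every gene tested, the threshold was 0.05, and the fit was tested on simulated data. Stage columns had no test. The 10 members and all lists were chosen with earlier results of these data known. Named were all members, the targeted genes, pathway genes past the threshold or else the 2 of smallest p per list, up to 4 per list with the highest stage peak, and the 2 genes most like each member (a few that the rule names are not reported here); genes named as markers, with groups that did not overlap or in other comparisons were picked after their values were seen. Alternatives were other pseudocounts, filters and scalings, a replicate block, each library left out, and, for blastocysts, library type; the fit within the 4 libraries with Rn45s was added after seeing the data. No transcript of another gene matched a member at 95% identity over 50% of its length (minimap2, GENCODE M21). Python 3.11.15 (matplotlib 3.10.9, numpy 2.4.6, pandas 2.3.3) served for the rest.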

Additional observations from a re-analysis of the deposited data

Results flagged for a closer look

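Of 28 groups of 4 libraries examined for a library far from the others, 3 were flagged by Dixon's criterion (gap over range above 0.829). For normally distributed values chance flags about 1 in 20 groups. FPKM with many zeros need not follow that rate. Fgfr3 stood at 17.7 FPKM in Nr5a2 knockdown library 3, where the other 3 lay between 3.35 and 5.66 (gap over range 0.838). Dusp6 stood at 0.218 FPKM in 8-cell control 4, where the other 3 were listed at 0, so any value above 0 would have been flagged. Fgf4 stood at 1.09 FPKM in Gata4 knockdown library 1, where the other 3 lay between 0 and 0.181 (gap over range 0.834).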

How the results depend on the processing

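In the Nr5a2 knockdown (128 genes higher, 57 lower) a pseudocount of 0.1 gave 73 and 35, no filter on low values 7 and 4, median scaling 65 higher and 80 lower, and quantile normalization 68 higher and 71 lower. Leaving out each library in turn gave 13 to 177 higher and 8 to 108 lower, lowest without control 1 and highest without knockdown library 3. In the Gata4 knockdown (0 higher, 3 lower) a pseudocount of 0.1 gave 1 lower, and 0 were lower with no filter, a filter at 5 FPKM, median scaling, quantile normalization, library type as a covariate or the 4 libraries with Rn45s, with 80 to 736 genes at an unadjusted p under 0.05 in these limma fits. Leaving out each library gave 0 to 5 higher and 1 to 25 lower. From ICM to mESC, where 2 members were higher and 2 lower, a pseudocount of 5 left 1 higher and 1 lower. Median scaling left 1 lower at that step and added Fgf4 to those higher. From 4-cell to 8-cell embryo median scaling removed Fgf4 from those lower and added Dusp6 to those higher. The cause was not tested for any of these.

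Correlations of same-numbered deviations were 0.036, 0.082, -0.108 and -0.0016 in 8-cell embryos and -0.096, 0.277 and 0.018 in blastocysts. Differently numbered libraries ran from -0.188 to 0.200 and from -0.364 to 0.505. Such correlations cannot tell whether control and knockdown libraries of the same replicate number were collected as pairs. With the replicate block 37 genes were higher and 18 lower in the Nr5a2 knockdown, where Dusp6 (adjusted p = 0.0687), Grb2 (0.0713) and Phlda1 (0.0552) lost the limma call, and 4 were higher and 14 lower in the Gata4 knockdown.

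Among the members tested, differences that changed sign were not called in any fit. In the Nr5a2 knockdown these were Fgfr4 (median scaling -0.097, quantile normalization -0.079, single libraries left out -0.20 to 0.28) and Etv5 (-0.018 and -0.030 under the same scalings, single libraries left out -0.18 to 0.42). In the Gata4 knockdown they were Fgfr1 (-0.026 with a pseudocount of 0.1, -0.098 with library type as a covariate, -0.12 in the libraries with Rn45s, and -0.21 to 0.31 with single libraries left out) and Fgfr4 (-0.017 to 0.22 with single libraries left out). Of the other named genes, Nr5a2 ran from -0.21 to 0.53, Phlda1 from -0.70 to 0.18 and Grb2 from -0.0010 to 0.42 over the alternatives in the Gata4 knockdown, and Gata4 from -0.83 to 0.015 in the Nr5a2 knockdown, with no call. Depth, 1 value per stage and groups of 3 or 4 libraries limit what could be seen for Fgf4, Spry4 and Etv4, which lay near or under 1 FPKM in most libraries of both knockdown tables, and for Fgfr3 in the blastocyst libraries.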
